A study of Mus musculus with 6 samples.

Results

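The SLC25 family is the set of solute carriers that sit, for the most part, in the inner mitochondrial membrane. Its members were chosen here by name and biotype, with earlier results of these data known. They are every protein-coding gene model whose symbol is Slc25a followed by a number. That rule found 47 genes among the 22058 protein-coding models and the 54118 models in all. Relatives with other symbols (the uncoupling proteins Ucp1, Ucp2 and Ucp3, and Mtch1 and Mtch2) were left to a separate list.

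The family was measured by RNA sequencing in primary mouse hepatocytes of the strain C57BL/6, isolated by collagenase perfusion of the liver, kept in medium with low serum and infected overnight with an adenovirus. The HuR group (3 samples) received a virus for HuR, an RNA-binding protein encoded by Elavl1. The beta-Gal group (3 samples) received a virus for beta-galactosidase, so both groups carry an adenovirus and differ in its insert. The labels state neither the age and sex of the mice nor whether replicates are separate mice or cultures. The p-values therefore reflect the scatter among these 6 samples, part or all of which may be technical.

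The inner mitochondrial membrane is closed to most metabolites, and SLC25 proteins exchange them across it, each with its own substrates. In hepatocytes these exchanges tie the respiratory chain, the urea cycle, gluconeogenesis, fatty acid synthesis and haem synthesis to the cytosol. HuR binds U-rich and AU-rich stretches of mRNA, often in the 3' untranslated region (3' UTR), and is known for changing the stability of the mRNAs it binds.

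Levels are in FPKM, which divides a gene's reads by the length of its model and by a library total of the authors' choice. Levels and shares of different genes thus depend on model length, which can differ from the length of the mRNA. The model of Slc25a28 was 1514 bases long and its longest annotated transcript 3724 bases. For Slc25a25 these lengths were 7862 and 3821 bases. The reads assigned to gene models, as recovered from the FPKM, numbered 15413306 to 17108184 in each library. Elavl1 was at 2434, 1662 and 1709 FPKM in HuR libraries, against 5.45, 5.91 and 5.62 FPKM in beta-Gal libraries, and HuR replicate 1 stood apart with the highest level. HuR replicate 1 had 15902608 reads in gene models, and 1 read on a 1 kb model was worth 0.0664 FPKM there. HuR replicate 3 had fewer reads, 15413306, but 1 such read was worth less, 0.0641 FPKM. FPKM of HuR replicate 1 were thus scaled up relative to its reads in gene models. The part of this scaling in its high values was not tested. Of 7 hepatocyte markers, all at 18 FPKM or more in both groups by mean, Alb and Serpina1a were called higher (log2 differences 0.15 and 0.11), Cps1 lower (-0.62), and Ttr, Apoa1, Apob and Hnf4a were not called. The 5 macrophage markers summed to 30.04 to 39.7 FPKM in HuR libraries and 17.2 to 20.3 FPKM in beta-Gal libraries. Nearly all of that sum was Cd68, called higher (log2 difference 0.82, adjusted p = 0.00196), which averaged 33.2 ± 5.50 FPKM in HuR and 18.3 ± 1.63 FPKM in beta-Gal libraries (SD, n = 3 each), while the other 4 lay under the filter. Adgre1 and Csf1r averaged 0.212 and 0.0983 FPKM in HuR libraries and 0.145 and 0.0797 FPKM in beta-Gal libraries, and Clec4f and Vsig4 averaged 0.240 and 0 FPKM in HuR libraries and 0.340 and 0.0132 FPKM in beta-Gal libraries. Endothelial markers summed to 5.03 to 5.95 FPKM in HuR and 3.91 to 4.34 FPKM in beta-Gal libraries, and cholangiocyte markers to 1.73 to 4.81 FPKM in HuR and 1.79 to 1.81 FPKM in beta-Gal libraries. Nearly all of the cholangiocyte sum was Sox9, which was not called (adjusted p = 0.339). Sox9 was at 4.67, 1.67 and 1.85 FPKM in HuR libraries and 1.81, 1.78 and 1.67 FPKM in beta-Gal libraries, so the top of the range is HuR replicate 1 alone. The part of other cells in the differences below was not tested, and in bulk RNA fewer cells of a type cannot be told apart from less RNA per cell.

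The SLC25 genes moved in both directions, and their largest difference in level lay in the liver-enriched Slc25a47. Of the 47 members, 45 had at least 1 read in some library, and 34 passed the filter for testing, a level of 1 FPKM or more in 3 or more libraries. Differences were taken on the log2(FPKM + 1) scale, HuR minus beta-Gal, which understates the change of low genes, and a gene was called at a limma adjusted p under 0.05 over all 11281 genes tested. By that rule 9 members were higher and 13 lower in HuR libraries, and 12 were not called. The calls came to 26.5% higher and 38.2% lower among the tested members, beside 20.7% and 24.8% among all genes tested, where 45.5% were called in either direction. The groups did not overlap for 22 of the 34 members (64.7%), beside 58.1% of all genes tested. Among the 9696 protein-coding genes tested, 20.9% were called higher, 27.4% were called lower, and the groups did not overlap for 61.9%.

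A called difference of at least 2-fold on the log2(FPKM + 1) scale was found for 3 members, Slc25a47, Slc25a16 and Slc25a25 (8.82%). On that scale the share was 3.68% of all genes and 3.03% of protein-coding genes tested. Slc25a24 fell short of it at -0.93, but its ratio of mean FPKM was 0.356. The same ratio was 0.39 for Slc25a16 and 0.428 for Slc25a47. The median log2 difference of the tested members was -0.01, as was that of all genes tested, and it ran from -0.16 with a trend on transcript GC content removed to 0.03 with median centring. Between these lay -0.12 under TPM scaling, -0.10 under quantile normalization and 0.01 with no filter on low values. The median of all genes tested under quantile normalization was -0.007. The median absolute difference of the members was 0.30, beside 0.21 over all genes tested. Leaving out beta-Gal replicate 1 gave 5 higher and 11 lower members. The split with TPM scaling was 5 higher and 16 lower, while over all genes it was 1543 higher and 3732 lower with a median of -0.10. With the GC trend removed it was 6 higher and 15 lower, and over all genes 2228 higher and 2826 lower with a median of -0.025.

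**Figure D1:**
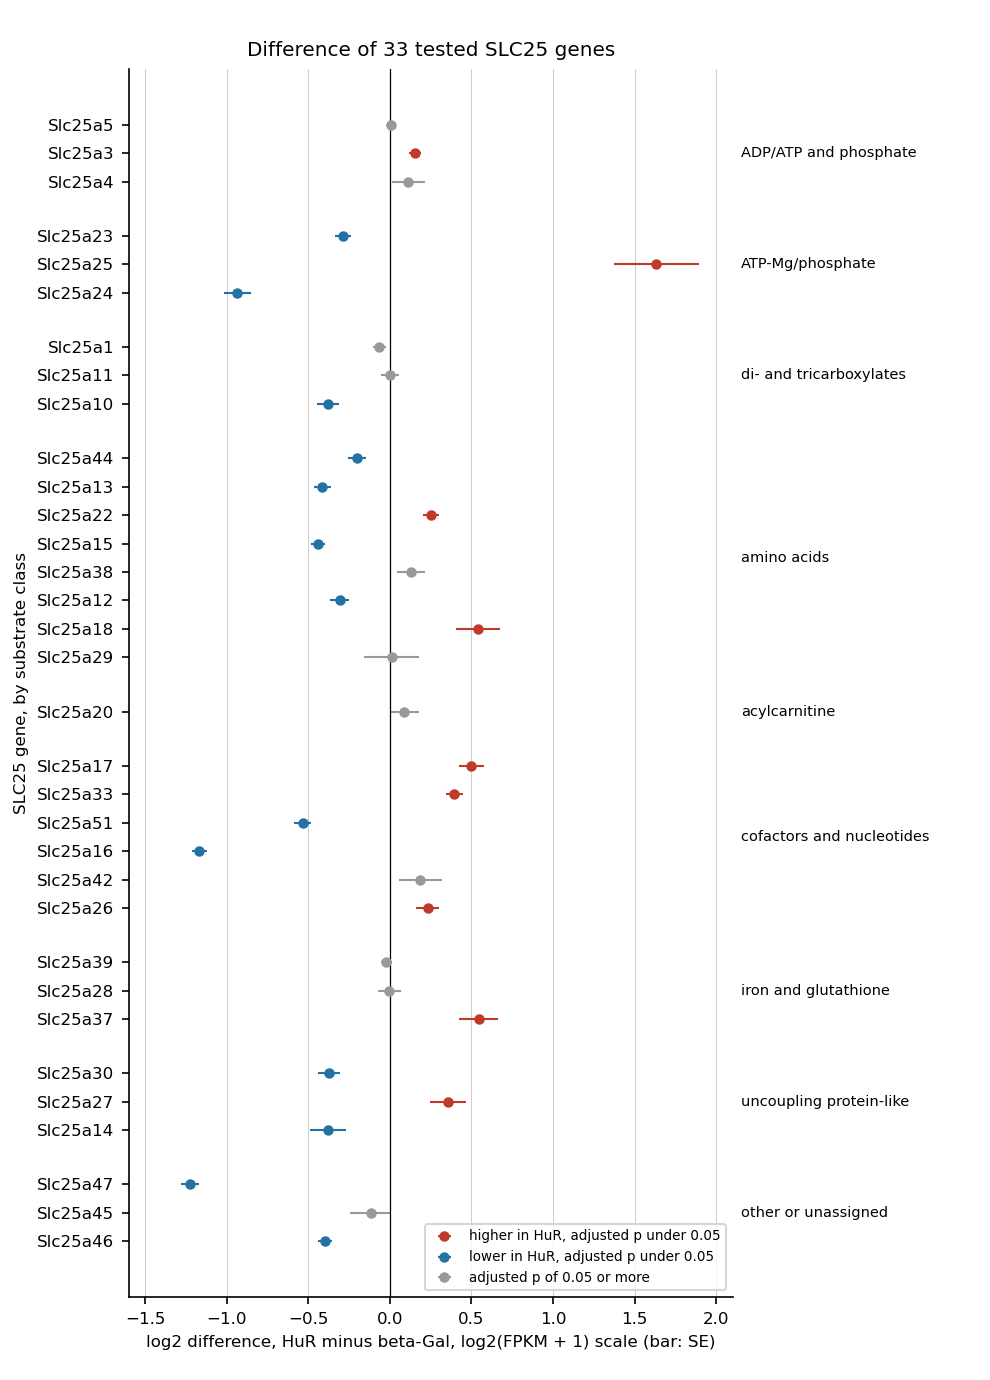
Log2 difference (HuR minus beta-Gal, log2(FPKM + 1) scale, horizontal axis) of 33 tested SLC25 genes, grouped by substrate, with bars for the standard error. Red points are the 9 members called higher, blue points the 13 called lower and grey points 11 not called; the differences run from -1.22 for Slc25a47 to 1.63 for Slc25a25.

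AU-rich sites of the members with the largest differences on the log2(FPKM + 1) scale are shown first, since HuR is known to bind such stretches. Of the 7 members called with a difference of at least 0.5 on the log2 scale, 6 hold the motif ATTTA in the longest 3' UTR that GENCODE M21 gives on GRCm38, and for each the 30-base window with the most copies of the motif is printed, ties going to the window richer in A and T. Windows are read 5' to 3' on the strand of the mRNA (written with T), and capitals mark ATTTA. Slc25a17, with a difference of 0.499, lay just under that limit. Slc25a14 lay under it at -0.38, but was at -0.70 with a pseudocount of 0.1. The first 3 genes were lower and the last 3 higher in HuR libraries.
Slc25a16, chr10:62946358-62946387, plus strand: ttaaggtaATTTAaatctataaaataaata
Slc25a24, chr3:109167649-109167678, plus strand: ATTTAttttaaaacttagaaaaatattatt
Slc25a51, chr4:45396024-45396053, minus strand: tctagATTTAaagatttttttactttttta
Slc25a18, chr6:120794307-120794336, plus strand: gcttttaaaaaataattATTTActaATTTA
Slc25a37, chr14:69242070-69242099, minus strand: ttttATTTAactttATTTAtggataattat
Slc25a25, chr2:32415097-32415126, minus strand: tATTTAttttgtATTTAtttgaacagagtt

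The windows of the 3 genes that were lower hold 1 copy of ATTTA each, and those of the 3 that were higher hold 2 each, but the whole 3' UTRs hold 4, 6 and 4 copies in the lower genes Slc25a16, Slc25a24 and Slc25a51 and 2, 5 and 3 copies in the higher genes Slc25a18, Slc25a37 and Slc25a25. The seventh gene, Slc25a47, has no ATTTA in a 3' UTR of 1189 bases. Over the whole 3' UTR the motif was found in 9 of 9 members called higher, 10 of 13 called lower and 7 of 12 not called, beside 68.5% of the 9635 protein-coding genes tested that have an annotated 3' UTR. By direction the shares of protein-coding genes were 60.8% of those called higher, 80.5% of those called lower and 65.2% of those not called. The U-rich run TTTTT was found in 7 of 9 members called higher, 11 of 13 called lower and 7 of 12 not called. Its share of the same 9635 genes was 77.2%, and by direction 70.35% of those called higher, 88.1% of those called lower and 74.1% of those not called. The 3' UTRs also differed in length, with medians of 1003 bases for the higher, 2027 for the lower and 703 for the uncalled members, and the densities were 1.78, 1.60 and 1.03 copies of ATTTA per kilobase, beside 1.82 over those 9635 genes. A match is a run of letters and not a measured binding site.

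Slc25a47 had the highest level of the family in both groups and the largest difference in FPKM. This gene, on chromosome 12 from 108836046 to 108856815, encodes a carrier known to be expressed mainly in liver. It was at 329, 364 and 377 FPKM in HuR libraries, against 843, 825 and 830 FPKM in beta-Gal libraries. Every HuR library lay far below every beta-Gal library. The means were 357 ± 24.96 FPKM in HuR and 833 ± 9.51 FPKM in beta-Gal libraries (SD, n = 3 each), with a ratio of 0.428 and a fitted difference of -1.22 in log2 units (SE 0.05, adjusted p = 3.0e-05). The difference rests on 50581 reads in HuR and 127203 reads in beta-Gal libraries. By mean FPKM the gene ranked 124 among all protein-coding genes in HuR libraries and 51 in beta-Gal libraries. Among the 501 genes tested with a mean of at least 100 FPKM, Slc25a47 was 1 of 4 called lower by at least 1 on the log2 scale, a comparison chosen after its values were seen. Counting Slc25a47 itself, 4 of the 501 had a log2 difference as low as its own or lower.

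Summed over all 47 members, the level was 1254.5, 1276 and 1282.1 FPKM in HuR libraries, against 1770, 1739.4 and 1760.5 FPKM in beta-Gal libraries. Without Slc25a47, the other 46 members summed to 926, 912 and 905 FPKM in HuR libraries and to 927, 915 and 931 FPKM in beta-Gal libraries, and the groups overlapped. Slc25a47 made up 28.0 ± 1.65% of the family's FPKM in HuR and 47.4 ± 0.255% in beta-Gal libraries. An exact permutation test, two-sided, gave p = 0.1 for that share, the smallest that 3 against 3 samples allow, and 0.2 for the sum of the other 46.

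**Figure D2:**
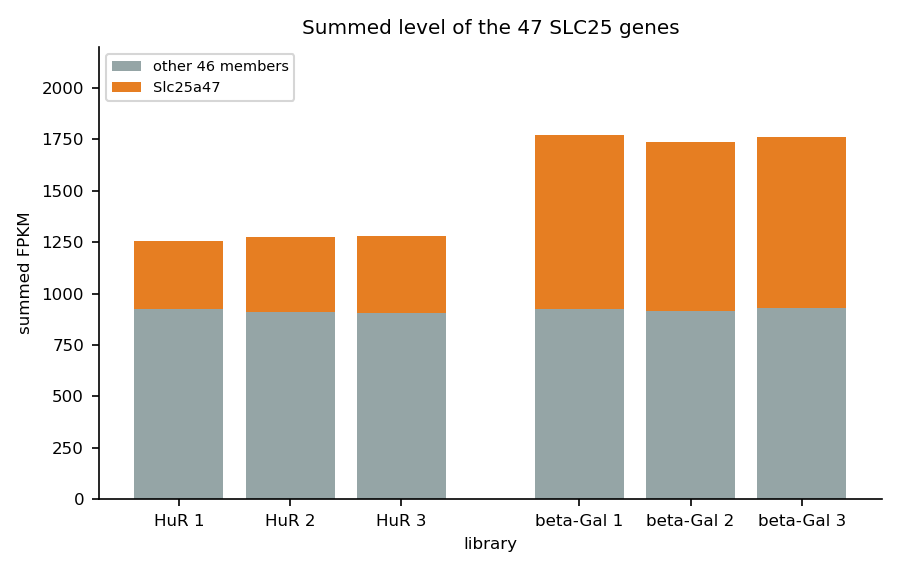
Summed FPKM of the SLC25 family (vertical axis) in each of the 3 HuR and 3 beta-Gal libraries, split into Slc25a47 (orange) and the other 46 members (grey). The grey parts lie between 905 and 931 FPKM in all 6 libraries, while the totals are 1254.5 to 1282.1 FPKM in HuR and 1739.4 to 1770 FPKM in beta-Gal libraries.

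Carriers of ADP, ATP and phosphate, which supply the ATP synthase and export its product, differed little. Slc25a5, the main ADP/ATP exchanger of liver, was at 247, 234 and 236 FPKM in HuR libraries, against 238, 236 and 239 FPKM in beta-Gal libraries, and the groups overlapped (log2 difference 0.01, adjusted p = 0.877, but -0.10 at 0.0203 under TPM scaling and -0.13 at 0.0138 under quantile normalization). It made up 99.2 ± 0.138% of the FPKM of Slc25a4 and Slc25a5 in HuR and 99.3 ± 0.054% in beta-Gal libraries. Slc25a4, the isoform of heart and muscle, averaged 1.82 ± 0.289 FPKM in HuR and 1.60 ± 0.144 FPKM in beta-Gal libraries and was not called. The pseudogene Slc25a5-ps, which could take reads of Slc25a5, held 6 reads in each group. Slc25a3, the phosphate carrier, was at 69.2, 66.1 and 65.3 FPKM in HuR libraries and 59.5, 59.4 and 60.9 FPKM in beta-Gal libraries, a small rise with no overlap (log2 difference 0.16, SE 0.04, adjusted p = 0.0132). The difference was 0.29 with the GC trend removed and 0.10 under quantile normalization, and the call ended under TPM scaling (0.05, adjusted p = 0.281) and without beta-Gal replicate 1 (0.0502) or 2 (0.0530). Slc25a31, the ADP/ATP exchanger of testis, had 0 reads in every library.

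The ATP-Mg/phosphate carriers, exchangers that set the adenine nucleotide content of the matrix, moved in opposite directions. Slc25a25 was at 13.8, 6.66 and 6.43 FPKM in HuR libraries, against 2.21, 1.82 and 2.11 FPKM in beta-Gal libraries. Every HuR library lay above every beta-Gal library, and HuR replicate 1 was well above the other HuR libraries. The means were 8.96 ± 4.18 FPKM in HuR and 2.05 ± 0.200 FPKM in beta-Gal libraries, with a ratio of 4.37 and a fitted difference of 1.63 in log2 units (SE 0.26, adjusted p = 0.00274). Without HuR replicate 1, which was also highest for Elavl1, the difference was 1.31 (adjusted p = 1.37e-04). Of its exon bases, 4.82% lie on the other strand of Naif1, which was at 1.55 ± 0.164 FPKM in HuR and 1.27 ± 0.187 FPKM in beta-Gal libraries.

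Slc25a24 was at 0.968, 1.09 and 1.01 FPKM in HuR libraries, against 2.69, 3.23 and 2.70 FPKM in beta-Gal libraries. Its log2 difference was -0.93 (SE 0.08, adjusted p = 2.88e-04), or -1.52 by limma voom on whole reads, and it rests on 167 reads in HuR and 505 reads in beta-Gal libraries. Slc25a23, the most abundant of the 3 in both groups by mean FPKM, averaged 15.0 ± 0.519 FPKM in HuR and 18.6 ± 0.698 FPKM in beta-Gal libraries (log2 difference -0.29, adjusted p = 0.00318). The 3 genes together summed to 25.03 ± 3.71 FPKM in HuR and 23.5 ± 0.814 FPKM in beta-Gal libraries, and the groups overlapped (exact permutation p = 0.8). Within that sum, Slc25a25 made up 47.03, 29.3 and 27.9% in HuR libraries and 9.36, 7.51 and 9.32% in beta-Gal libraries. The fourth gene, Slc25a41, held 11 reads in HuR and 0 reads in beta-Gal libraries, was not called with no filter on low values (log2 difference 0.23, adjusted p = 0.101), and begins 2057 bp after the end of Slc25a23 on the same strand.

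**Figure D3:**
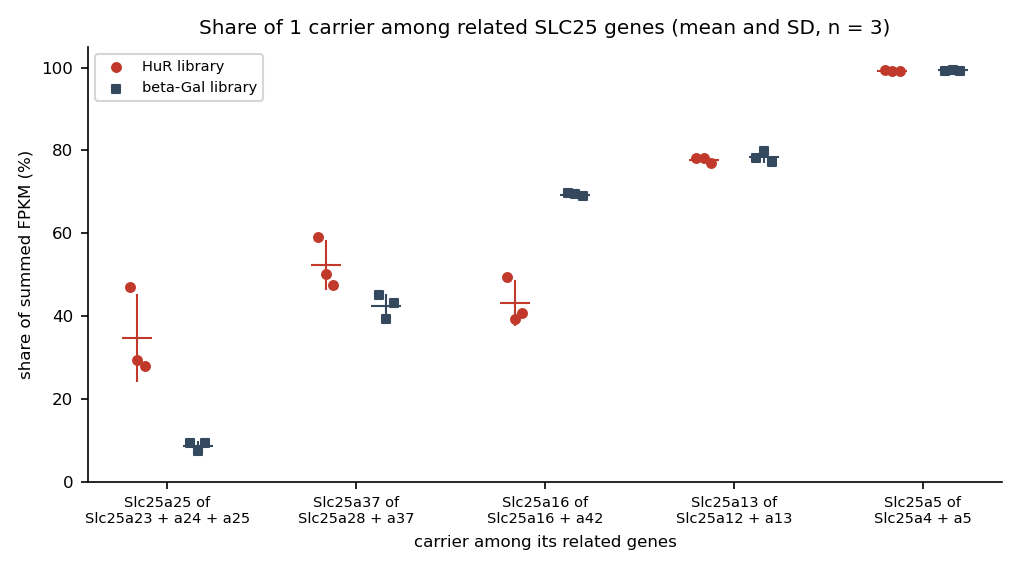
Share of 1 carrier in the summed FPKM of related SLC25 genes (vertical axis, %), with a point per library and a bar for the mean and SD (n = 3). The Slc25a25 and Slc25a37 shares are higher and the Slc25a16 share lower in HuR libraries without overlap, while the shares of Slc25a13 and Slc25a5 overlap between the groups.

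Carriers of di- and tricarboxylates, which move citrate, malate and 2-oxoglutarate, were mostly not called. Slc25a1, the citrate carrier that feeds cytosolic acetyl-CoA for fatty acid synthesis, averaged 108 ± 3.16 FPKM in HuR and 113 ± 4.24 FPKM in beta-Gal libraries (log2 difference -0.06, adjusted p = 0.246). It was called lower under TPM scaling (-0.17, 0.0213), under quantile normalization (-0.16, 0.0413) and with the GC trend removed (-0.20, 0.00342). Slc25a11, the 2-oxoglutarate carrier of the malate-aspartate shuttle, averaged 32.2 FPKM in both groups (SD 0.762 in HuR and 2.06 in beta-Gal libraries). Slc25a10, the dicarboxylate carrier that exchanges malate or succinate for phosphate, fell to 17.9, 21.0 and 19.7 FPKM in HuR libraries, against 24.4, 26.6 and 26.1 FPKM in beta-Gal libraries (log2 difference -0.38, SE 0.07, adjusted p = 0.00398). Slc25a10 begins 2775 bp after the end of Mrpl12 on the same strand. Mrpl12 averaged 42.6 ± 1.37 FPKM in HuR and 43.4 ± 1.21 FPKM in beta-Gal libraries and was not called. The part of reads running on from Mrpl12 was not tested. Slc25a21 was under the filter, at 0.293 ± 0.036 FPKM in HuR and 0.357 ± 0.034 FPKM in beta-Gal libraries.

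Among the 8 tested carriers of amino acids, 4 were lower and 2 higher. Both aspartate/glutamate carriers were lower. Slc25a13 (citrin), the liver form that serves the malate-aspartate shuttle and supplies aspartate to the urea cycle, was at 11.8, 11.3 and 11.9 FPKM in HuR libraries, against 15.7, 16.9 and 15.1 FPKM in beta-Gal libraries (log2 difference -0.41, SE 0.05, adjusted p = 0.00119). Slc25a12 (aralar), better known from brain and muscle, averaged 3.34 ± 0.192 FPKM in HuR and 4.36 ± 0.108 FPKM in beta-Gal libraries (-0.31, adjusted p = 0.00608). The share of Slc25a13 in the sum of both was 77.8 ± 0.670% in HuR and 78.4 ± 1.39% in beta-Gal libraries, and the groups overlapped.

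Slc25a15, which exchanges ornithine and citrulline for the urea cycle, was at 8.73, 8.72 and 8.81 FPKM in HuR libraries, against 12.5, 11.7 and 12.5 FPKM in beta-Gal libraries (log2 difference -0.44, SE 0.04, adjusted p = 4.45e-04). Slc25a44, a carrier of branched-chain amino acids, averaged 46.8 ± 3.45 FPKM in HuR and 53.9 ± 0.510 FPKM in beta-Gal libraries (-0.20, adjusted p = 0.0253; -0.31 under TPM scaling). Its call ended without HuR replicate 2 (0.0572) or beta-Gal replicate 1, 2 or 3 (0.0688, 0.0665 and 0.0785), with median centring (0.0756) and with no filter (0.0520). The glutamate carriers were the exceptions in this class. Slc25a22 was at 11.4, 12.05 and 11.7 FPKM in HuR libraries, against 9.29, 9.92 and 9.85 FPKM in beta-Gal libraries (log2 difference 0.25, adjusted p = 0.0053), and the call ended under TPM scaling (0.0873) and with the GC trend removed (0.0726).

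Slc25a18, the second glutamate carrier, was at 1.60, 1.90 and 1.88 FPKM in HuR libraries, against 0.815, 1.32 and 0.675 FPKM in beta-Gal libraries (log2 difference 0.54, adjusted p = 0.0178; 0.91 with a pseudocount of 0.1 and 0.93 by voom). It rests on 163 reads in HuR and 92 reads in beta-Gal libraries, and the call ended without HuR replicate 2 (0.0541) or 3 (0.0530), without beta-Gal replicate 1 (0.0594) or 3 (0.0541) and with no filter (0.0524). Slc25a18 passed the filter through the HuR libraries, where it was high. In the beta-Gal group only replicate 2 reached 1 FPKM. Slc25a38, a glycine carrier of haem synthesis, averaged 6.00 ± 0.724 FPKM in HuR and 5.37 ± 0.324 FPKM in beta-Gal libraries and was not called. Slc25a29, a carrier of basic amino acids, was at 0.765, 1.62 and 1.53 FPKM in HuR libraries and 1.29, 1.43 and 1.06 FPKM in beta-Gal libraries, overlapped and was not called. Its gene model starts 163 bp from the start of the Slc25a47 model, on the opposite strand. The ornithine carrier Slc25a2 held 10 reads in HuR and 7 reads in beta-Gal libraries.

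Slc25a20, the carnitine/acylcarnitine carrier that brings fatty acids to beta-oxidation, was not called, at 5.64, 5.01 and 5.64 FPKM in HuR libraries and 4.49, 4.96 and 5.75 FPKM in beta-Gal libraries (log2 difference 0.09, SE 0.09, adjusted p = 0.455).

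Carriers of cofactors and nucleotides gave 3 rises and 2 falls among 7 tested members. Slc25a16, linked to coenzyme A through work on its yeast relative, was at 3.88, 3.91 and 3.93 FPKM in HuR libraries, against 10.2, 10.2 and 9.62 FPKM in beta-Gal libraries. The HuR values were close together, and all lay far below every beta-Gal value. Its ratio was 0.39 and its log2 difference -1.17 (SE 0.05, adjusted p = 2.8e-05), from 889 reads in HuR and 2460 reads in beta-Gal libraries. Slc25a42, an established coenzyme A carrier, was at 3.97, 6.05 and 5.72 FPKM in HuR libraries, against 4.45, 4.49 and 4.33 FPKM in beta-Gal libraries, with HuR replicate 1 under the beta-Gal values and the other two above them. It was not called (0.19, adjusted p = 0.283), but without HuR replicate 1 the difference was 0.34 (0.00358). The share of Slc25a16 in the sum of both was 49.4, 39.2 and 40.7% in HuR libraries and 69.6, 69.5 and 68.9% in beta-Gal libraries.

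Slc25a51, a carrier of NAD, was at 12.6, 13.6 and 14 FPKM in HuR libraries, against 19.8, 19.4 and 20.4 FPKM in beta-Gal libraries (log2 difference -0.53, SE 0.05, adjusted p = 3.47e-04). Slc25a17, a carrier of peroxisomes that transports coenzyme A and other nucleotide cofactors, was at 41.3, 37.3 and 33.8 FPKM in HuR libraries, against 25.2, 27.2 and 26.0 FPKM in beta-Gal libraries (0.50, SE 0.08, adjusted p = 0.00223). It begins 2857 bp after the end of St13 on the same strand, and St13 averaged 18.1 ± 0.945 FPKM in HuR and 20 ± 0.097 FPKM in beta-Gal libraries; the part of reads running on from St13 was not tested. Slc25a33, a pyrimidine nucleotide carrier, was at 26.2, 26.9 and 26.4 FPKM in HuR libraries, against 19.7, 21.4 and 18.7 FPKM in beta-Gal libraries (0.40, SE 0.06, adjusted p = 0.00158).

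Slc25a26, the carrier of S-adenosylmethionine, averaged 1.92 ± 0.041 FPKM in HuR and 1.49 ± 0.069 FPKM in beta-Gal libraries (log2 difference 0.23, adjusted p = 0.0319; 0.35 with a pseudocount of 0.1). Of its 16 alternatives 10 ended this call, among them leaving out HuR replicate 2 (0.0732) or 3 (0.0827) or beta-Gal replicate 1, 2 or 3 (0.102, 0.0789 and 0.0728) and TPM scaling (0.127). Slc25a36, a second pyrimidine nucleotide carrier, and Slc25a32, a carrier of folate and FAD, lay under the filter.

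Of the 3 tested carriers of iron and glutathione, 1 rose. Slc25a37 (mitoferrin 1), which imports iron, was at 33.3, 25.2 and 24.8 FPKM in HuR libraries, against 19.9, 17.1 and 18.8 FPKM in beta-Gal libraries, with HuR replicate 1 the highest (log2 difference 0.54, SE 0.12, adjusted p = 0.00993). Without HuR replicate 1 the difference was 0.41 (0.0037). Its paralog Slc25a28 (mitoferrin 2) averaged 25.1 FPKM in both groups (SD 2.19 in HuR and 1.13 in beta-Gal libraries). Slc25a37 thus made up 59.1, 50.2 and 47.6% of the FPKM of both mitoferrins in HuR libraries, against 45.0, 39.3 and 43.2% in beta-Gal libraries. The size of these shares depends on the model lengths, 6021 bases for Slc25a37 and 1514 bases for Slc25a28.

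Slc25a39, a glutathione carrier, averaged 137 ± 2.44 FPKM in HuR and 140 ± 2.56 FPKM in beta-Gal libraries (log2 difference -0.02, adjusted p = 0.605), and was called lower under TPM scaling (-0.13, 0.0479) and with the GC trend removed (-0.17, 0.00297). Its paralog Slc25a40 was below the filter at 0.166, 0.298 and 0.245 FPKM in HuR libraries, against 0.65, 0.78 and 0.881 FPKM in beta-Gal libraries. Every HuR library lay below every beta-Gal library, with 95 reads in HuR and 331 reads in beta-Gal libraries. With no filter on low values its log2 difference was -0.52 (adjusted p = 0.00798).

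The relatives of the uncoupling proteins split. Slc25a30 was at 25.4, 21.7 and 21.9 FPKM in HuR libraries, against 31.0, 28.6 and 30.4 FPKM in beta-Gal libraries (log2 difference -0.37, SE 0.07, adjusted p = 0.00517). Slc25a14 was at 0.731, 0.680 and 0.760 FPKM in HuR libraries, against 1.52, 1.21 and 1.02 FPKM in beta-Gal libraries (-0.38, adjusted p = 0.0271; -0.70 with a pseudocount of 0.1 and -0.80 by voom), a call that rests on 81 reads in HuR and 151 reads in beta-Gal libraries. It ended without HuR replicate 1, 2 or 3 (0.0508, 0.0699 and 0.0559), under the replicate block (0.0532) and with no filter (0.0625). Slc25a14 passed the filter only through the beta-Gal libraries, where it was high, and without a beta-Gal library it did not reach the filter. Slc25a27 was at 2.57, 2.95 and 3.51 FPKM in HuR libraries, against 1.83, 2.39 and 2.16 FPKM in beta-Gal libraries (0.36, adjusted p = 0.0387). That call ended under 8 of 16 alternatives, among them leaving out HuR replicate 2 (0.0814) or 3 (0.1003) or beta-Gal replicate 1 (0.114) or 3 (0.0877) and TPM scaling (0.112).

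Of the members with other or unassigned substrates, Slc25a46 was lower beside Slc25a47. Slc25a46, which sits in the outer membrane and is known for a part in mitochondrial shape, was at 6.82, 6.604 and 6.68 FPKM in HuR libraries, against 9.10, 9.12 and 9.26 FPKM in beta-Gal libraries (log2 difference -0.40, SE 0.04, adjusted p = 5.73e-04), and its difference was -0.18 (0.0132) with the GC trend removed. Slc25a45 averaged 8.02 ± 1.48 FPKM in HuR and 8.70 ± 0.616 FPKM in beta-Gal libraries, and the groups overlapped.

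**Figure D4:**
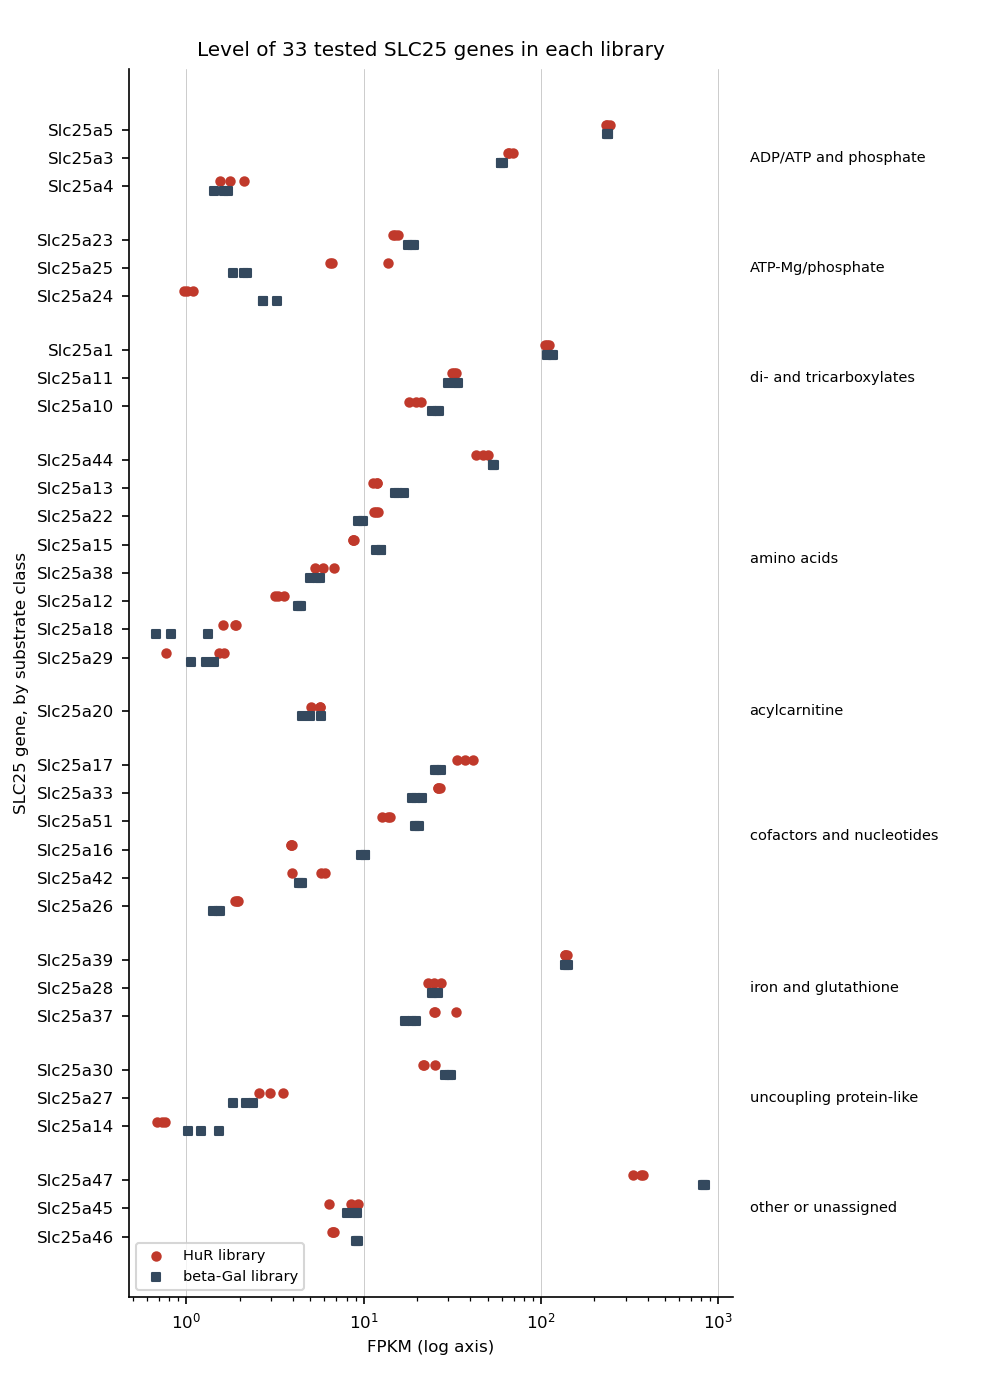
FPKM (log axis) of 33 tested SLC25 genes in each of the 3 HuR libraries (red circles) and 3 beta-Gal libraries (dark squares), grouped by substrate. Levels run from 0.675 FPKM for Slc25a18 to 843 FPKM for Slc25a47, both in beta-Gal libraries. HuR replicate 1 is the isolated circle to the right for Slc25a25 and Slc25a37.

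The 13 members below the filter reached at most 0.881 FPKM in any library. With no filter, 3 of them were called, Slc25a40 as given above, Slc25a36 lower (-0.29, adjusted p = 0.044) and Slc25a48 higher (0.16, 0.0434). Slc25a36 was at 0.36, 0.484 and 0.414 FPKM in HuR libraries, against 0.662, 0.831 and 0.727 FPKM in beta-Gal libraries. Slc25a48 held 35 reads in HuR and 16 reads in beta-Gal libraries. Slc25a32 varied more within the groups than between them, with 13, 56 and 58 reads in the HuR libraries and 5, 8 and 73 reads in the beta-Gal libraries. Slc25a34, Slc25a35, Slc25a43 and Slc25a53 held between 6 and 97 reads in HuR and between 3 and 63 reads in beta-Gal libraries, and Slc25a54 had 0 reads in both groups.

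Base composition and overlap with other genes are given here for the called and uncalled members. The median GC content of the longest annotated transcript was 47.6% for the 13 lower, 49.8% for the 9 higher and 55.1% for the 12 uncalled members, beside 49.6% over all genes tested. Of the 22 called members, 8 share exon bases with a gene on the opposite strand, at most 14.9% of the exon bases of a member (281 bases of Slc25a33 with Gm13068, which averaged 0.448 FPKM over the 6 libraries). The opposite gene was far more abundant than the member for Slc25a18, which shares 32 bases with Atp6v1e1 (43.8 FPKM), and for Slc25a26, which shares 144 bases with Lrig1 (16.9 FPKM). With no statement on whether counting used strand, reads of such stretches cannot be told apart.

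**Figure D5:**
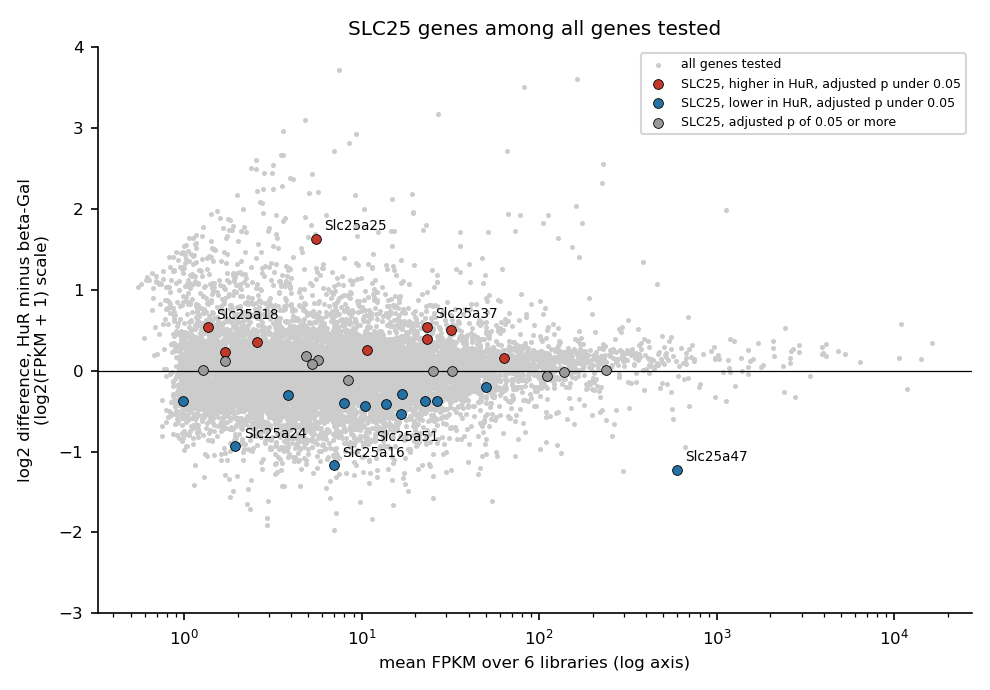
Log2 difference (HuR minus beta-Gal, log2(FPKM + 1) scale) against mean FPKM over 6 libraries (log axis) for all 11281 genes tested (light grey) and 33 tested SLC25 members (outlined). The 7 members with a difference of at least 0.5 are named, Slc25a47 lying at the right among few genes with so low a difference; 4 genes, Elavl1 among them, lie outside the plotted range of -3 to 4.

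Genes that insert carriers into the membrane or share their substrates were listed by function, and counts are given over those tested, to be read against 20.7% higher and 24.8% lower over all genes tested. No list was tested, and each holds 3 to 17 tested genes. The relatives with other symbols gave 0 higher and 2 lower of 3, Ucp2 averaging 0.975 ± 0.087 FPKM in HuR and 1.40 ± 0.047 FPKM in beta-Gal libraries (log2 difference -0.28), and Mtch2, an outer membrane insertase, 4.97 ± 0.332 FPKM in HuR and 5.93 ± 0.229 FPKM in beta-Gal libraries (-0.22). Carrier import, the TOM and TIM22 route by which SLC25 proteins reach the inner membrane, gave 5 higher and 2 lower of 14. Tomm70a, the outer membrane receptor for carrier precursors, averaged 39.9 ± 4.30 FPKM in HuR and 64.2 ± 2.45 FPKM in beta-Gal libraries (-0.68, adjusted p = 7.55e-04), while Timm8b and Tomm20 were higher by 0.31 and 0.27. Of the outer membrane pores, Vdac3 was lower (-0.49) and Vdac1 and Vdac2 were not called. Other inner membrane transporters gave 5 higher and 6 lower of 17, with Sfxn4, a sideroflexin, at 3.40 ± 0.252 FPKM in HuR and 0.210 ± 0.028 FPKM in beta-Gal libraries (1.86, adjusted p = 3.0e-05) and Micu2, a regulator of calcium uptake, at -0.47. Sfxn4 passed the filter only through the HuR libraries, where it was high, so a gene at its beta-Gal level could be tested only if it rose.

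Enzymes that use the same substrates were then counted by pathway. Partners of the malate-aspartate shuttle and citrate export gave 1 higher and 4 lower of 12, with Acly, which cleaves the exported citrate, at 271 ± 21.6 FPKM in HuR and 372 ± 4.14 FPKM in beta-Gal libraries (log2 difference -0.46, adjusted p = 0.00117) and Me1 and Idh1 at -0.81 and -0.27. The carnitine shuttle gave 1 higher and 2 lower of 5, with Cpt1a and Crot at -0.44 and -0.28 and Cpt2 at 0.16. Urea cycle and ornithine enzymes gave 0 higher and 3 lower of 8, these being Cps1, Glud1 and Nags at -0.62, -0.31 and -0.25. Iron-sulfur and haem genes gave 1 higher and 3 lower of 13, with Bola3 at 0.44 and Isca1 and Fech, the last enzyme of haem synthesis, at -0.42 and -0.35.

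Glutathione genes gave 1 higher and 2 lower of 6, with Gsr, glutathione reductase, at -0.52, Gclm at -0.21 and Gpx4 at 0.17. Coenzyme A and NAD synthesis gave 2 higher and 5 lower of 13. Pank1, which starts coenzyme A synthesis, averaged 12.1 ± 1.28 FPKM in HuR and 24.6 ± 0.378 FPKM in beta-Gal libraries (log2 difference -0.97, adjusted p = 1.54e-04), Nampt, the rate-limiting step of NAD salvage, was at -0.47, and Nadsyn1 at 0.34. Folate and S-adenosylmethionine genes gave 1 higher and 3 lower of 10, with Gldc at 0.41, Aldh1l2 at -0.44 and Mat1a, the liver enzyme that makes S-adenosylmethionine, at -0.24. Mitochondrial nucleotide supply gave 1 higher and 1 lower of 8 (Nme4 at 0.76, Ak4 at -0.25). Regulators of mitochondrial biogenesis gave 1 higher and 3 lower of 7, with Esrra at 0.28, Gabpa at -0.34 and Tfb2m at -0.40.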

How the data were processed

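The authors deposited 1 table of FPKM values for 6 libraries, with gene model lengths and biotypes. The submitters' processing notes name, without their roles, featureCounts 1.5.0-p3, HISAT2 2.0.5, DESeq2 1.16.1 and the build GRCm38.p6. FPKM times length was a whole multiple of 1 step per library (tolerance 0.001 of a read), which gave whole reads. 1 read on a 1 kb model is worth 0.0573 to 0.0664 FPKM. Groups and replicate numbers came from sample titles.

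limma 3.58.1 in R 4.3.3 was fitted to log2(FPKM + 1) with a mean-variance trend, group as the only term, over genes reaching 1 FPKM in 3 or more libraries; two-sided p-values were adjusted by Benjamini-Hochberg and called under 0.05. The step was tested on simulated data. Shares were compared with exact permutation tests over samples. Members and lists were chosen with earlier results of these data known, so no list was tested. All members could be named; in other lists, up to 3 called genes with the smallest adjusted p. Coasy and Tf were not analysed here. Of the tested members, 1 is counted but not otherwise reported here. GENCODE M21 gave transcripts, 3' UTRs and exons; 99.1% of models matched by identifier. The alternatives comprised TPM, quantile and median scaling, other filters, pseudocounts of 0.1 and 0.5, limma voom on whole reads, a replicate block, protein-coding genes only, each library left out and, added after seeing the data, removal of a GC trend. Tables and plots were made with pandas 2.3.3, scipy 1.17.1, matplotlib 3.10.9 and numpy 2.4.6 under Python 3.11.15.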

Additional observations from a re-analysis of the deposited data

How the results depend on the processing

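Of the 22 called members, 15 stayed past the threshold in the same direction under every alternative in which they were tested (4 higher: Slc25a17, Slc25a25, Slc25a33 and Slc25a37; 11 lower), 7 lost the call at least once and 0 reversed. Of the 12 uncalled members, 5 were called under at least 1 alternative. Under TPM scaling 5 members were higher, the family median was -0.12 and 1543 of all genes were higher, against 2334 here. The family median was -0.10 under quantile normalization and -0.16 with the GC trend removed, an alternative chosen after seeing the data. Over all genes the median was -0.10 under TPM scaling, -0.007 under quantile normalization and -0.025 with the GC trend removed. The cause of these shifts was not tested. Leaving out 1 library gave 5 to 10 members higher, 11 to 13 lower, a median of -0.06 to -0.01, and 1751 to 2114 genes higher and 2046 to 2896 lower overall. Samples with the same replicate number did not deviate together (correlations -0.0294, 0.000668 and -0.0143), and with the replicate block 8 members were higher and 12 lower, and 2084 genes higher and 2465 lower overall. Depth limits the calls of Slc25a14 and Slc25a18, which rest on the fewest reads among called members. It also limits members below the filter, but less so Slc25a36 (192 reads in HuR and 364 in beta-Gal libraries) and Slc25a40 (95 and 331). Their models are long, at 9594 and 8386 bases, which lowers FPKM for a given number of reads.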
